A study of Mus musculus with 5 samples.

Results

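The DNA replication machinery was followed in endothelial cells of the mouse thymus before and 4 days after sublethal irradiation. It was taken as 34 genes, and every probe set whose platform annotation gave 1 of these symbols alone was read on all 5 arrays. This found 32 of the 34 genes, among 12393 genes named by a single-symbol probe set, and 59 probe sets out of 22626. Gins2 and Chaf1a had no such probe set, and a probe set that carried both Tyms and Tyms-ps was not used. Of the 59 probe sets, 44 (of 28 genes) lay above log2 4 on at least 2 arrays and were tested, and 15 did not. Orc1, Mcm10, Tyms and Dtl were represented only by probe sets under that level.

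All mice were female C57BL/6J of 6 to 8 weeks. Untreated mice gave 3 arrays (day 0), and mice that had received 550 cGy of total body irradiation from a cesium source, with no hematopoietic rescue, gave 2 arrays (day 4). Thymus cells were depleted of CD45+ cells on magnetic columns and then sorted as CD45-, EpCAM- and VE-cadherin+. The cells of several mice were pooled for every array of the Affymetrix MOE 430 A 2.0 platform, so p-values measure the spread between pools, and nothing in the labels says how far the pools were independent. The cell type label read thymic endothelial cells at day 0 and CD45- thymic stromal cells at day 4, while the series' design describes the same sort for both.

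DNA replication starts in 2 steps. The origin recognition complex, CDC6 and CDT1 load the MCM helicase onto DNA before S phase, and MCM10, CDC45 and the GINS complex then turn it into a moving helicase. Polymerase alpha and primase start each strand, polymerases epsilon and delta extend it, replication factor C places the PCNA clamp, and FEN1 and LIG1 trim and seal the lagging strand. Ribonucleotide reductase, thymidylate synthase and thymidine kinase supply the nucleotides. CAF-1, UHRF1 and the histone mRNA binding protein SLBP serve the copying of chromatin. Many of these genes are transcribed under E2F factors, and their transcripts are known to be more abundant in dividing than in resting cells, a state in which most adult endothelium is found.

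At day 4 most replication transcripts lay close to their day 0 levels. The probe sets with the lowest differences were those of Rrm2 and Tk1 in nucleotide supply, followed by Rfc4, Pole and Uhrf1, while smaller differences in the same direction, of Mcm2, Mcm5, Mcm6 and Mcm7, made up much of helicase loading. Of the 44 tested member probe sets, 1 was called lower by limma at an adjusted p under 0.05, an Rfc4 probe set, and 0 were called higher. Over all 15065 probe sets tested, 0.677 percent were called lower and 0.717 percent higher. At an unadjusted p under 0.05, 12 member probe sets were lower (27.3 percent) against 9.34 percent of all tested, and 1 was higher (Pcna) against 10.1 percent. Both day 4 arrays lay below all 3 day 0 arrays for 18 member probe sets (40.9 percent, against 20.7 percent of all tested) and above them for 2 (4.55 percent, against 18.9 percent). Leaving out day 0 replicate 1 lowered the count of 12 to 7 (16.3 percent, against 6.28 percent of all tested). Leaving out day 0 replicate 3 lowered it to 8 (18.6 percent, against 7.44 percent). The single call was lost when any of the 5 arrays was left out, with adjusted p between 0.0738 and 0.159.

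The median day 4 minus day 0 difference of the 44 tested member probe sets was -0.14 on the log2 scale, beside -0.0044 for all probe sets tested. Without the level filter the median of all 59 member probe sets was -0.083, and both day 4 arrays lay below day 0 for 19 of them (32.2 percent), against 17.6 percent of the whole table. The difference was below 0 for 30 of the 44 (68.2 percent, against 50.8 percent of all tested) and above 0 for 14. It was smaller than 0.2 in either direction for 23. For 39 of the 44 the 95% interval of the difference excluded a 2-fold change either way. The interval of 5 reached a 2-fold fall, and none reached a 2-fold rise. The counts of small differences and of intervals were made for members only, so they have no background here. Mcm5 and Pole passed the level filter through their day 0 arrays, so the counts and medians of tested members are descriptions.

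**Figure D1:**
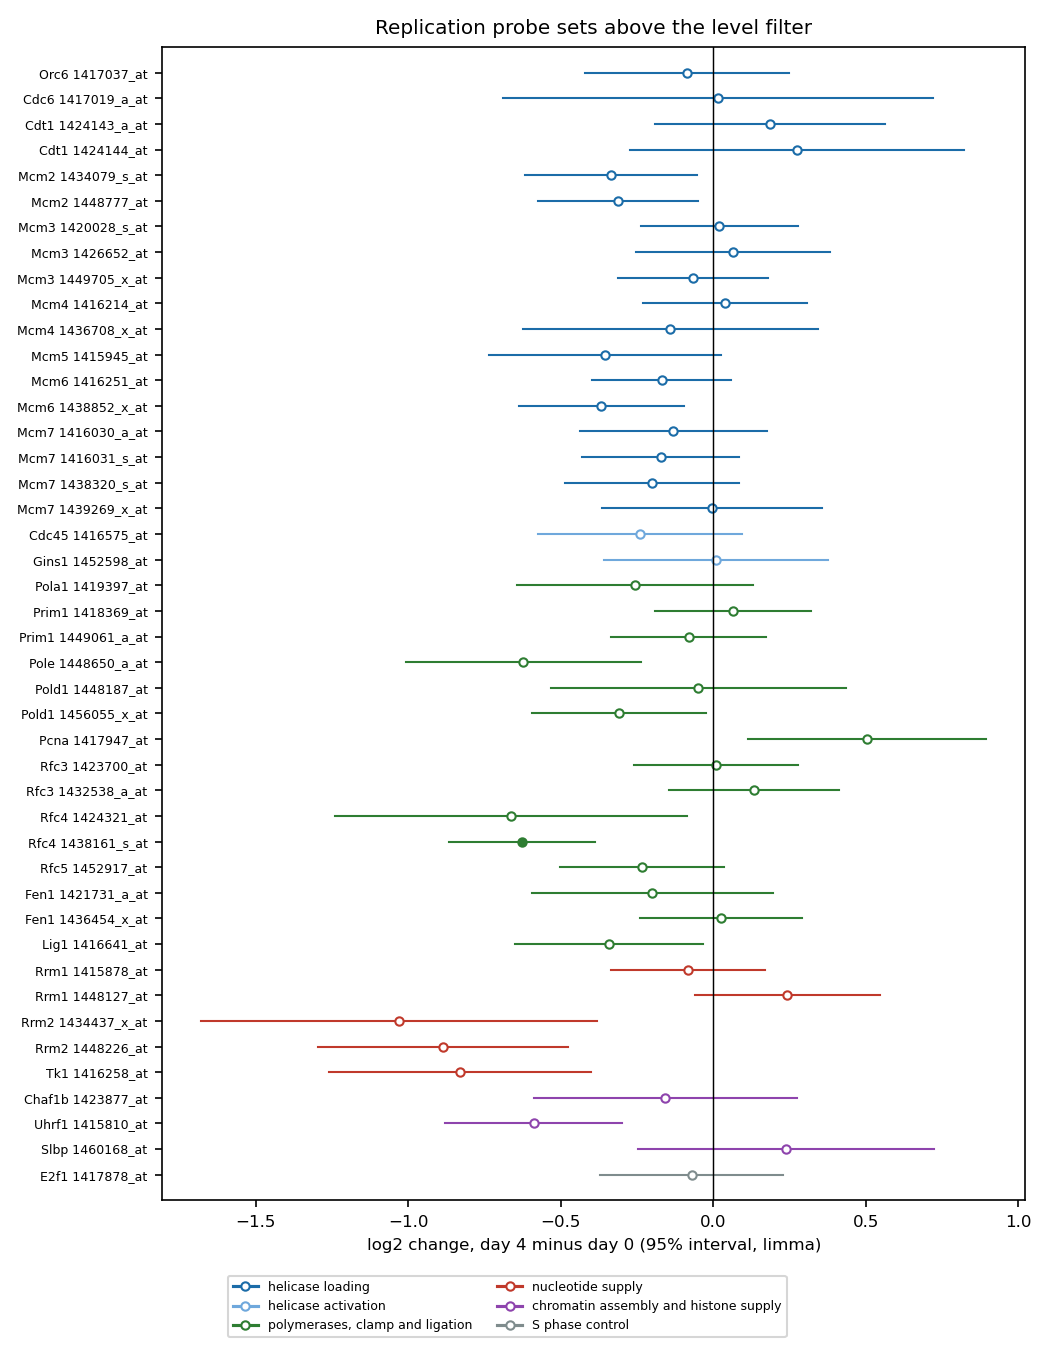
Day 4 minus day 0 difference in log2 value (x axis) of each of the 44 tested replication probe sets (y axis), coloured by role, with the 95% limma interval as a line; the filled point is called at an adjusted p under 0.05 and open points are not. Most points lie between -0.4 and 0.3, and the Rrm2 and Tk1 probe sets lie farthest to the left.

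Promoter sequence is shown for Mcm6, Rfc4, Rrm2 and Uhrf1. These genes held the lowest single tested probe set of helicase loading, polymerases and clamp, nucleotide supply and chromatin assembly. By the mean over probe sets Mcm6 was not the lowest of its role. Mcm5 differed by -0.36 in its lone probe set, and Mcm6 by -0.37 and -0.17. Stretches of Mcm5, Tk1 and Pcna were also taken up, and were left out because they overlap an annotated gene. The stretches are the 200 bases before the annotated start in RefSeq (GRCm38.p6), 5′ to 3′ on the gene's strand, and none overlaps an annotated gene. Capitals mark the E2F words TTTCCCGC, TTTCGCGC, TTTGCCGC and TTTGGCGC and the CCAAT word, each searched on both strands. The Mcm6 stretch is chr1:128359706-128359905 on the minus strand, and that of Rrm2 is chr12:24708054-24708253 on the plus strand. The Rfc4 stretch is chr16:23127731-23127930 on the minus strand. The Uhrf1 stretch, before the first of its starts, is chr17:56303137-56303336 on the plus strand.
Mcm6: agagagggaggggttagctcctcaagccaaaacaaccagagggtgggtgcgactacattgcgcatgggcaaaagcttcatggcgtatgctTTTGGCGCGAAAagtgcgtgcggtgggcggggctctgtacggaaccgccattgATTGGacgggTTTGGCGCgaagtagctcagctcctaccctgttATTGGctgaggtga
Rrm2: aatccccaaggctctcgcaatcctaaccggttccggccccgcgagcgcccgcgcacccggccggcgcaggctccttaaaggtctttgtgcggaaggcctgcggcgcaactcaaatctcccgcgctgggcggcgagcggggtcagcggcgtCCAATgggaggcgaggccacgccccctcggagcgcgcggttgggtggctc
Rfc4: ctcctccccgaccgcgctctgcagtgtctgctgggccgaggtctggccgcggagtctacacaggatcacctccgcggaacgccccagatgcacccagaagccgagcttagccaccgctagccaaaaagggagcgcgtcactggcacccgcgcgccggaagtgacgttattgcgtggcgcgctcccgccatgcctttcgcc
Uhrf1: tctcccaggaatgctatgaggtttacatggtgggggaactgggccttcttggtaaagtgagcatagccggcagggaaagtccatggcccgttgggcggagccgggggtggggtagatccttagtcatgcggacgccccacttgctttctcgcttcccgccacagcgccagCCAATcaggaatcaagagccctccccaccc
In Mcm6, 3 E2F words lie before the start, of which 2 overlap on opposite strands in 1 run of capitals, together with 2 CCAAT words. Rrm2 and Uhrf1 hold 1 CCAAT word each in these stretches and Rfc4 holds none of the words. The window of a second Uhrf1 start, not shown, holds 1 E2F word.

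An E2F word was present in 13 of 35 member windows (37.1 percent), each running from 250 bases before to 50 after a start. The share was 2.26 percent of all 32851 windows, 25.5 percent of the windows of the other replication genes and 5 percent of those of mitosis genes. The CCAAT word was in 60 percent of member windows and 37.4 percent of all windows, and in 85 percent of those of mitosis genes. Among tested members, the 11 genes with an E2F word had a median difference of -0.18 and the 14 without one a median of -0.12, taking the mean over the probe sets of a gene. Gins1, Mcm4 and Pole were tested but had no window in the table. The words are matches of letters only, and the lowest gene, Rrm2, was among those without an E2F word in its window.

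Helicase loading was the role with the most probe sets, and its tested differences ran from -0.37 to 0.27. Its 18 tested probe sets had a median difference of -0.11, which became 0.021 without day 4 replicate 2. None was called, and the lowest adjusted p in limma was 0.162. Both day 4 arrays lay below all day 0 arrays for 7 of the 18, and above for none. The shares were 38.9 and 0 percent, against 20.7 and 18.9 percent of all tested. The 7 below were Mcm2, Mcm5, Mcm6 and Mcm7 probe sets.

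Mcm6, a subunit of the helicase ring, read 7.22, 7.14 and 7.12 at day 0 and 6.92 and 6.68 at day 4 with probe set 1438852_x_at. The groups did not overlap, and the difference was -0.37 ± 0.11 (SE), with an adjusted p of 0.162 in limma. Its other probe set, 1416251_at, read 7.61, 7.62 and 7.50 against 7.41 and 7.41, a difference of -0.17. For this probe set too the groups stood apart, by less than for the first.

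Mcm2, another ring subunit, read 7.48, 7.26 and 7.32 at day 0 and 6.93 and 7.11 at day 4 with 1434079_s_at, a difference of -0.34 ± 0.12. Its second probe set, 1448777_at, read 5.49, 5.41 and 5.25 against 5.07 and 5.08, a difference of -0.31 ± 0.11. Both probe sets thus gave the same direction with no overlap, at adjusted p of 0.197 and 0.198 in limma. Mcm5 lay at the level filter, at 4.15, 3.71 and 4.05 on day 0 and 3.52 and 3.70 on day 4. Its lower values are near background, and the difference of -0.36 had an adjusted p of 0.280 in limma.

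In tested probe sets Mcm3, Mcm4 and Mcm7 showed smaller differences that varied with the probe set. The 3 tested Mcm3 probe sets differed by 0.019, 0.066 and -0.067, and the 2 of Mcm4 by 0.038 and -0.14. Of the Mcm3 probe sets under the level filter, 1426653_at differed by 0.57, with both day 4 arrays above all day 0 arrays. The other, 1420029_at, differed by 0.023 with overlap. The 4 Mcm7 probe sets differed by -0.13, -0.17, -0.20 and -0.0042. Differences between the subunits were not tested.

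The loaders of the helicase had differences of either sign with overlapping groups. Cdt1, which brings the MCM ring to the origin, read 7.32, 6.98 and 7.07 at day 0 and 7.48 and 7.14 at day 4 with 1424143_a_at, a difference of 0.19 with overlapping groups. A second Cdt1 probe set, 1424144_at, differed by 0.27 ± 0.22, again with overlap. Cdc6, the ATPase that works with CDT1, read 5.85, 5.63 and 6.06 against 6.34 and 5.38. The 2 day 4 arrays lay on both sides of the day 0 arrays, and the difference of 0.017 turned to -0.46 without day 4 replicate 1 and to 0.50 without day 4 replicate 2. Orc6, an origin recognition subunit, differed by -0.087, at 6.74, 6.82 and 6.79 against 6.89 and 6.50. Orc1 stayed between 2.23 and 2.97 on all 5 arrays.

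Helicase activation was thinly covered. Cdc45, which joins the MCM ring in the moving helicase, read 4.62, 4.31 and 4.28 at day 0 and 4.09 and 4.24 at day 4. The groups were separate by a narrow margin, and the difference was -0.24 ± 0.14 with an adjusted p of 0.386 in limma. Gins1, a subunit of GINS, read 4.73, 4.62 and 4.32 against 4.67 and 4.46, an overlap. Its difference of 0.0077 took either sign with the scaling, at -0.017 after quantile normalization. Both Mcm10 probe sets were under the level filter, between 2.57 and 4.01.

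The polymerase, clamp and ligation genes had differences of either sign, with 15 tested probe sets, a median of -0.20 and values from -0.66 to 0.50. The median moved to -0.0018 without day 4 replicate 1. Both day 4 arrays lay below day 0 for 6 probe sets and above for 1. The shares were 40 and 6.67 percent, against 20.7 and 18.9 percent of all tested. The count at an unadjusted p under 0.05 was 5 lower and 1 higher (33.3 and 6.67 percent, against 9.34 and 10.1 percent).

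Rfc4, a subunit of the clamp loader, read 5.01, 4.96 and 4.84 at day 0 and 4.31 and 4.30 at day 4 with 1438161_s_at. The gap between the groups exceeded the range within either, and the value fell by 1.54-fold, a log2 difference of -0.63 ± 0.098 (adjusted p = 0.0486, limma with Benjamini-Hochberg adjustment over all tested). The adjusted p ranged from 0.0458 to 0.159 over the other settings, and under the threshold only after median centring and with a filter on the mean of the 5 arrays. A probe set of this suffix can match several transcripts. The second Rfc4 probe set, 1424321_at, read 5.59, 5.23 and 5.37 against 5.11 and 4.35, a difference of -0.66 ± 0.24 with an adjusted p of 0.210. It had the same direction and a day 4 spread wider than that of day 0.

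The other loader subunits differed less. Rfc5 read 5.56, 5.42 and 5.38 at day 0 and 5.31 and 5.13 at day 4, separate groups with a difference of -0.23 and an adjusted p of 0.306 in limma. Rfc3 differed by 0.0088 and 0.13 in its 2 probe sets, with overlap in both, and the first turned to -0.015 after quantile normalization and -0.016 after median centring.

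Pcna, the sliding clamp that replication factor C loads and that DNA repair also uses, lay on the other side of 0 from its loader subunit Rfc4. It read 11.22, 11.34 and 11.36 at day 0 and 12.05 and 11.56 at day 4. Both day 4 arrays were above all day 0 arrays, and they differed from each other by more than the whole day 0 range. The difference was 0.50 ± 0.16, a 1.42-fold higher value, with an adjusted p of 0.175 in limma. It was positive in all settings tried, from 0.26 without day 4 replicate 1 to 0.75 without day 4 replicate 2. Among the 28 tested members it was the only gene with a difference above 0.5 in any tested probe set, whereas 5 genes had one below -0.5.

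Pole, the catalytic subunit of the leading strand polymerase, read 4.54, 4.27 and 4.04 at day 0 and 3.67 and 3.65 at day 4. The groups were separate, and the day 4 values lay under the level filter. The difference was -0.62 ± 0.16, with an adjusted p of 0.123 in limma. Pold1, the catalytic subunit of polymerase delta, differed by -0.31 in 1456055_x_at, where 7.12, 6.96 and 7.03 stood against 6.60 and 6.85. In its other probe set, 1448187_at, the difference was -0.049 with overlapping groups.

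Pola1, the catalytic subunit of polymerase alpha, read 5.45, 5.42 and 5.11 against 4.90 and 5.24, a difference of -0.26 with overlap. Prim1, the small primase subunit of the same complex, differed by 0.065 and -0.081 in its 2 probe sets. Lig1, the ligase of the lagging strand, read 6.71, 6.42 and 6.73 at day 0 and 6.28 and 6.27 at day 4. Its groups were separate, and the difference of -0.34 ± 0.13 had an adjusted p of 0.220 in limma. Fen1, the flap nuclease that prepares the ends for LIG1, differed by -0.20 and 0.024, with overlap in both probe sets.

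Nucleotide supply held the lowest values of all roles, in 2 of its 4 genes. Its 5 tested probe sets had a median difference of -0.83. At an unadjusted p under 0.05, 3 of the 5 were lower (60 percent, against 9.34 percent of all tested). They were both tested Rrm2 probe sets and that of Tk1. None of the 5 was called after adjustment over all probe sets. The median depended on which probe sets entered: it was -0.15 over all 9 with no level filter and -0.46 without probe sets whose suffix marks possible matches to several transcripts.

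Rrm2, the regulated small subunit of ribonucleotide reductase, read 6.91, 6.52 and 6.40 at day 0 and 5.98 and 5.18 at day 4 with 1434437_x_at. Every day 4 value lay below every day 0 value, with the day 4 arrays wider apart than those of day 0. The difference was -1.03 ± 0.27, a 2.04-fold lower value, with an adjusted p of 0.126 in limma. With 1448226_at it read 5.36, 5.10 and 5.25 against 4.59 and 4.11, a difference of -0.89 ± 0.17, with an adjusted p of 0.0735. The second probe set repeated the separation. The remaining probe set, 1416120_at, lay between 3.17 and 3.55 on all arrays, under the filter.

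Rrm1, the large subunit of the same enzyme, showed no such separation. With 1415878_at it read 7.69, 7.55 and 7.53 at day 0 and 7.57 and 7.44 at day 4, a difference of -0.083 with overlap. With 1448127_at it read 5.31, 5.31 and 5.15 against 5.64 and 5.36, a difference of 0.24 with both day 4 arrays above. Its 95% intervals ran from -0.34 to 0.17 and from -0.06 to 0.55, and those of Rrm2 from -1.68 to -0.38 and from -1.30 to -0.48. The difference between the genes was not tested.

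Tk1, the thymidine kinase of the salvage pathway, read 5.46, 4.94 and 4.99 at day 0 and 4.25 and 4.35 at day 4. The groups stood apart by more than the range within either of them. The difference was -0.83 ± 0.18, a 1.78-fold lower value, with an adjusted p of 0.0888 in limma. The 3 Tyms probe sets, for thymidylate synthase, stayed between 1.97 and 2.95 on all arrays.

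Chromatin assembly rested on 3 tested probe sets, with no call. Both day 4 arrays lay below day 0 for 1 of the 3 (33.3 percent, against 20.7 percent of all tested). They lay above for 0 (against 18.9 percent). Uhrf1, which reads hemimethylated DNA behind the fork and recruits the maintenance methyltransferase, read 5.62, 5.37 and 5.60 at day 0 and 5.01 and 4.87 at day 4. The groups did not overlap, and the difference was -0.59 ± 0.12, a lower value by a factor of 1.50, with an adjusted p of 0.0815 in limma. Its second probe set, 1415811_at, lay between 2.96 and 3.34 on all arrays, under the filter, and differed by -0.15 with overlap. Chaf1b, the middle subunit of CAF-1, read 4.74, 4.29 and 4.19 against 4.21 and 4.29, an overlap with a difference of -0.16. That difference was 0.0088 without day 0 replicate 1. Slbp read 9.27, 9.28 and 9.28 on the day 0 arrays and 9.86 and 9.17 at day 4. The day 4 arrays lay on opposite sides of the tightly placed day 0 arrays, and the difference of 0.24 became -0.10 without day 4 replicate 1. Another Slbp probe set, 1437803_at, lay between 2.02 and 2.32, under the filter. It differed by -0.17, with both day 4 arrays below all day 0 arrays.

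The role of S phase control had 1 tested probe set. E2f1, an activator of replication genes, read 4.03, 4.08 and 4.34 at day 0 and 4.08 and 4.08 at day 4, within the day 0 range. Its second probe set lay between 3.29 and 3.65. Dtl, an adaptor of the ubiquitin ligase that removes CDT1 in S phase, lay between 2.08 and 3.50 in its 2 probe sets.

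**Figure D2:**
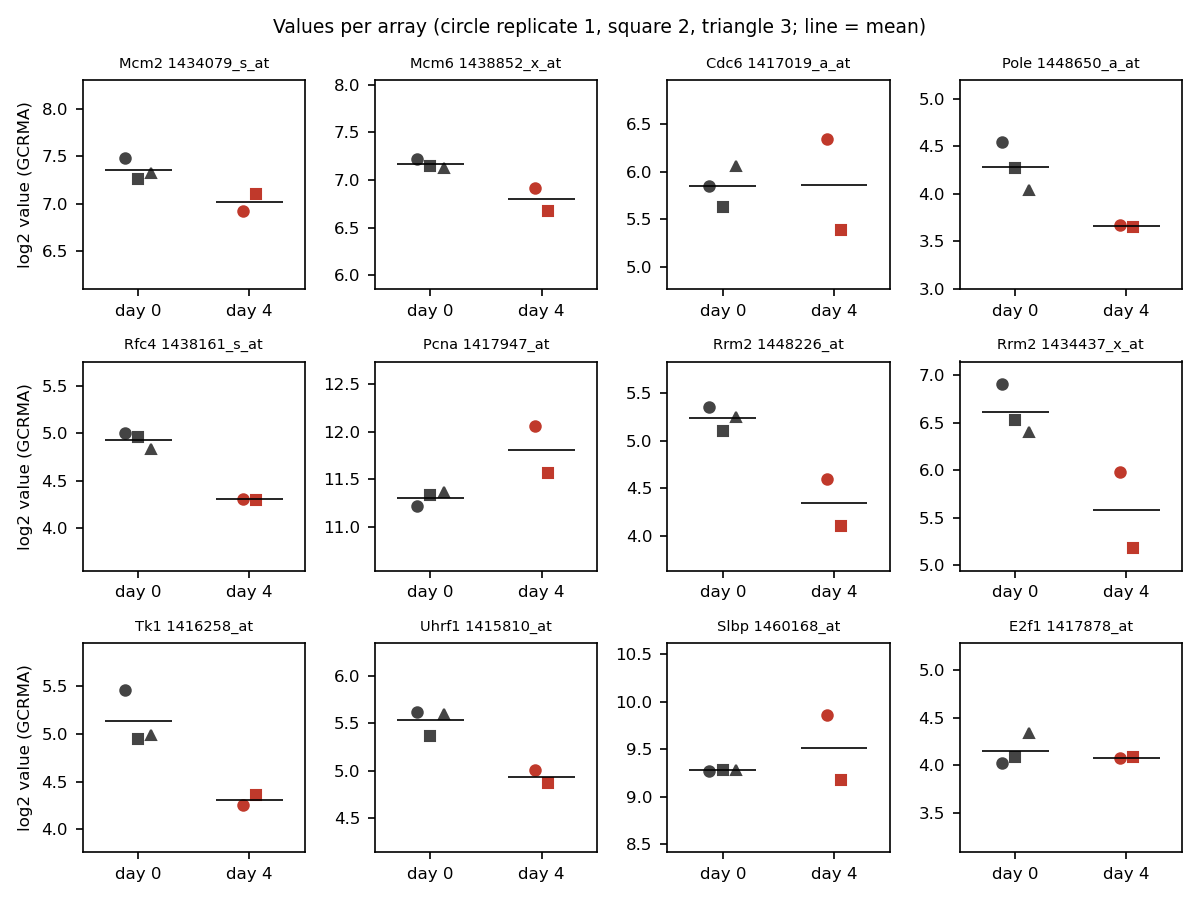
Deposited log2 value (y axis, a span of 2.2 in each panel) of 12 replication probe sets on the day 0 arrays (dark) and day 4 arrays (red), with replicate 1 as a circle, 2 as a square and 3 as a triangle, and the group mean as a line. Each gene is shown by its tested probe set with the lowest p in limma, and Rrm2 by both tested ones, so the panels favour separation. Mcm2, Mcm6, Rrm2, Tk1, Uhrf1, Pole and Rfc4 are separate and lower at day 4. Pcna is separate and higher, and Cdc6 and Slbp spread to both sides.

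Probe sets of 1 gene did not always point the same way. Of the 13 member genes with at least 2 tested probe sets, 5 had differences of both signs: Mcm3, Mcm4, Prim1, Fen1 and Rrm1. The day 4 arrays differed from each other by over 0.5 for 6 probe sets, of Cdc6, Cdt1, Mcm4, Rfc4, Rrm2 and Slbp. Day 0 replicate 1 was the highest of its group for 28 of the 44 tested member probe sets.

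The rest of the pathway held a few larger differences. Of 55 other replication genes, 47 had a probe set and 69 probe sets of 44 genes were tested, with a median difference of -0.082. One was called lower and 0 higher. At an unadjusted p under 0.05, 14 were lower and 3 higher (20.3 and 4.35 percent, against 9.34 and 10.1 percent of all tested). Both day 4 arrays lay below day 0 for 28 and above for 10 (40.6 and 14.5 percent, against 20.7 and 18.9 percent). The called gene was Top2a, the topoisomerase that untangles replicated DNA and acts in mitosis. Its probe set 1427724_at lay under the level filter and differed by 0.30 with overlap. The called probe set, 1454694_a_at, read 7.0, 6.31 and 6.44 against 4.85 and 4.65. The groups lay far apart, and the value fell by 3.55-fold (log2 difference -1.83 ± 0.22, adjusted p = 0.0257, limma). Without day 4 replicate 1, day 4 replicate 2 or day 0 replicate 3 its adjusted p was 0.137, 0.0689 and 0.0939.

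Some further genes of this list were picked out after their values were seen. Hells, a chromatin remodeller, read 4.91, 4.53 and 4.55 against 3.78 and 3.93, a difference of -0.81 with an adjusted p of 0.0652 in limma. Dck and Dut, of nucleotide salvage and of dUTP removal, differed by -0.57 and -0.52 in 2 Dck probe sets and by -0.48 in Dut. Rrm2b, the reductase subunit that p53 induces, differed by -0.42, and Gmnn, the inhibitor of CDT1, by -0.51. The groups did not overlap for these probe sets, while a Dut probe set under the level filter differed by -0.023 with overlap. The other nucleotide genes of the list did not share one direction. Shmt1 differed by -0.12, 0.20 and 0.30 in its 3 tested probe sets, Samhd1 by 0.028, -0.057 and -0.32, and Nme1 by -0.0063 and -0.16. Timeless, of the fork protection complex, was opposite, at 9.19, 9.31 and 9.49 against 10.01 and 9.88, a difference of 0.62 with an adjusted p of 0.0792. The 8 tested probe sets of E2F and pocket protein genes had a median of -0.065 and 0 calls by limma. At an unadjusted p under 0.05, 2 were lower (25 percent, against 9.34 percent of all tested).

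Mitosis genes are given beside the replication members. Of their 16 tested probe sets, 5 were called lower (31.25 percent, against 0.677 percent of all tested), and the median difference was -0.84. The called genes were Mki67, Ube2c, Cdk1, Birc5 and Cenpf. Only 9 of the 16 were above the level filter on all 5 arrays, the others having at least 1 array under it. The called probe sets of Birc5, Cenpf and Ube2c passed the filter through day 0 alone. The counts, medians and list means of tested mitosis probe sets are therefore descriptions. The median over all 31 mitosis probe sets was -0.32. Only 1, 2 and 1 were called without day 4 replicate 1, day 4 replicate 2 or day 0 replicate 3. Mki67, a marker of dividing cells, read 6.96, 6.21 and 6.91 against 4.57 and 4.19, a 4.98-fold lower value (adjusted p = 0.0212, limma). Ube2c, of the anaphase ubiquitin system, read 6.22, 5.54 and 5.70 against 3.95 and 3.28, with the day 4 values under the filter (adjusted p = 0.0277). The mean over the list was 5.0 to 5.41 on the day 0 arrays and 4.23 to 4.34 at day 4. The same means for the replication members were 6.07 to 6.21 and 5.88 to 6.01, so both lists were separate between the groups, with the narrower gap for replication. The contrast between the lists was not tested.

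**Figure D3:**
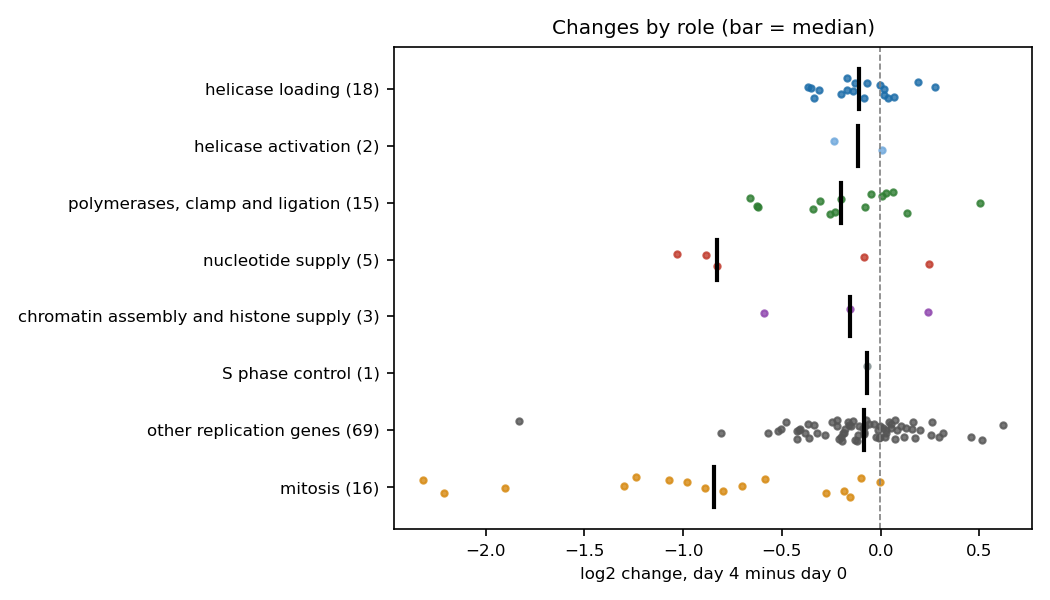
Day 4 minus day 0 difference in log2 value (x axis) of the tested probe sets of each replication role, of the other replication genes and of mitosis genes (y axis, number of probe sets in parentheses); each point is a probe set, the black bar is the median and the dashed line is the median of all probe sets tested, -0.0044. The nucleotide supply and mitosis medians, -0.83 and -0.84, lie left of the others; without the level filter they were -0.15 and -0.32.

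Markers of other cells differed between the same groups. All 16 tested thymocyte probe sets were lower at day 4 and 6 were called (37.5 percent, against 0.677 percent of all tested). The list mean was 5.43 to 6.19 on the day 0 arrays and 4.02 to 4.19 at day 4. Of the 16, 7 were above the level filter on all arrays and the others had at least 1 array under it, as Rag1 did at day 4, so the count is a description. The median was -1.64 over the 16 and -1.11 over all 24 thymocyte probe sets. Rag1, the recombinase of immature thymocytes, read 7.58, 6.51 and 7.25 against 3.06 and 3.14 (adjusted p = 0.00771, limma; 0.102 without day 4 replicate 1). Satb1, a chromatin organizer abundant in thymocytes, was called lower in 2 probe sets, with differences of -3.04 and -3.01, and a further probe set differed by -0.88 with overlapping groups (adjusted p = 0.261). These calls were lost without day 4 replicate 1, day 4 replicate 2 or day 0 replicate 3 for both called probe sets, and without day 0 replicate 1 for that at -3.01. Thymocytes of the untreated thymus divide, and the part of these cells in the lower replication values was not tested. In such bulk samples, fewer cells of a type and less RNA per cell cannot be told apart.

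The 20 tested myeloid probe sets gave 4 calls higher and 2 lower (20 and 10 percent, against 0.717 and 0.677 percent of all tested). The list mean was 5.81 to 6.72 at day 0 and 7.35 to 7.50 at day 4, and 15 of the 20 were above the level filter on all arrays. Cd163 and Fcgr1, of macrophages, were higher by 2.89 and 2.37, and S100a8 and S100a9, of granulocytes, were called lower with differences of -2.93 and -1.88. None of these probe sets was among the 15. Each passed the filter through the group where it was high, so their calls are descriptions. Without day 0 replicate 3 the adjusted p was 0.0577 for both Cd163 and S100a8 and 0.116 for Fcgr1. Without day 4 replicate 1 it was 0.151 for Fcgr1 and 0.0829 for S100a9, and without day 4 replicate 2 it was 0.069 for Fcgr1. Without either day 4 array Cd163 no longer passed the level filter. The 2 tested B cell probe sets, of Ms4a1 and Cd79b, were both called lower, with list means of 4.45 to 4.65 and 3.20 to 3.27. Both passed the level filter through day 0 alone, and the median was -1.29 over them and -0.34 over all 6 B cell probe sets. Their adjusted p was 0.127 and 0.131 without day 4 replicate 1, 0.0517 and 0.0863 without day 4 replicate 2, and 0.0939 and 0.158 without day 0 replicate 3. That of Cd79b was 0.108 without day 0 replicate 1. The 14 thymic epithelial probe sets gave 0 calls in limma, with list means of 6.33 to 6.89 and 5.55 to 6.20. At an unadjusted p under 0.05, 6 were lower (42.9 percent, against 9.34 percent of all tested). The part of these marked cell types in the replication values was not tested.

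Endothelial markers were high on all arrays. The 19 endothelial probe sets gave 0 calls in limma, with list means of 9.86 to 10.03 at day 0 and 9.72 to 10.02 at day 4. At an unadjusted p under 0.05, 1 was lower (5.26 percent, against 9.34 percent of all tested). Cdh5, which encodes VE-cadherin, was 11.57 and 11.39 in the group means of 1433956_at (adjusted p = 0.337), and Pecam1 differed by 0.14. Epcam and Ptprc, which encode the antigens of the excluded cells, read above the level filter on all arrays. Epcam lay at 5.67 to 7.27 and Ptprc at 6.08 to 6.86, with adjusted p of 0.582 and 0.994 in limma. The 20 fibroblast and pericyte probe sets gave 0 calls in limma, with list means of 7.96 to 8.06 and 7.90 to 8.12. At an unadjusted p under 0.05, 2 were lower and 1 higher (10 and 5 percent, against 9.34 and 10.1 percent). Cdkn1a, the p53 target that inhibits cell cycle kinases and binds PCNA, rose by 1.35 and 1.03 on the log2 scale (adjusted p = 0.0380 and 0.0132). Without day 4 replicate 1 these were 0.154 and 0.0956, and without day 0 replicate 3 they were 0.0949 and 0.0585. Without day 4 replicate 2 or day 0 replicate 2, the first was 0.0817 and 0.0758.

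**Figure D4:**
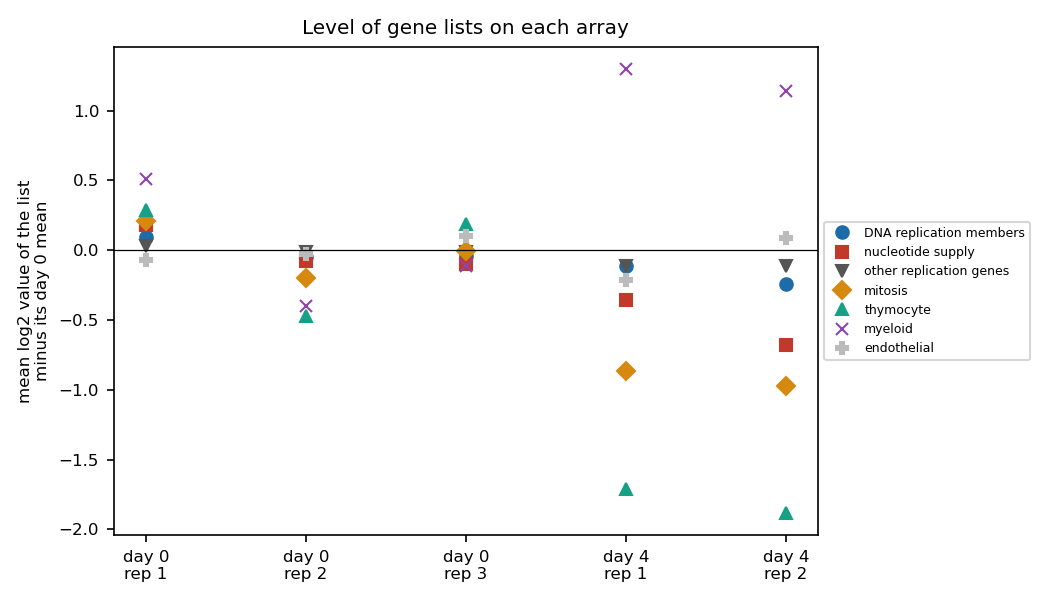
Mean log2 value of the tested probe sets of each gene list minus the list's day 0 mean (y axis) on each of the 5 arrays (x axis). The thymocyte and mitosis lists are lower and the myeloid list higher on both day 4 arrays, nucleotide supply is lower by less, and the replication members and the endothelial list stay nearer to 0.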

How the data were processed

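Expression was measured on 5 single-colour arrays. The deposited log2 values, 1 per probe set and array, were GCRMA output of the authors, as the submitters' processing notes name that tool. No source used here gives its version or says whether 1 run covered all arrays. GCRMA removes background and equalizes the arrays, so a change shared by most genes would be hidden, and low values carry no detection call. Values ran from 1.57 to 14.4. The number of arrays limits the precision.

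The 64 control probe sets were left out. All 15065 probe sets above log2 4 on at least 2 arrays entered 1 fit (limma 3.58.1 in R 4.3.3, lmFit and eBayes, two-sided, Benjamini-Hochberg adjustment, day 4 minus day 0), tested on simulated data. Levels of different probe sets were not compared. Symbols of all 59 member probe sets matched RefSeq by Entrez identifier. Figures were drawn with matplotlib 3.10.9.

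The members and lists were chosen with earlier results of these data known. Named were every member, the called genes of the other lists (beyond 4 in a list, 2 risers and 2 fallers of greatest size), and Cdh5, Pecam1, Epcam, Ptprc, Rag1, Mki67 and Cdkn1a. Alternatives covered normalization, filters, probe set choice, the variance model, array weights, a replicate block and each array left out.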

Additional observations from a re-analysis of the deposited data

How the results depend on the processing

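Most settings gave fewer member calls, and precision is limited by 5 arrays of which 2 are day 4; the causes were not tested. The Rfc4 call, the count of member probe sets and of member genes lower at day 4, became 0 with quantile normalization, no level filter, a level filter at 6, 1 probe set per gene, the mean of the probe sets of a gene, an intensity trend with robust fitting, array weights, and without probe sets ending in _s_at or _x_at, and was 0 whichever array was left out. At an adjusted p under 0.10 it was 4 probe sets of 4 genes (Rfc4, Rrm2, Tk1, Uhrf1). The whole table gave 21 lower and 32 higher with array weights, 309 and 348 at 0.10, and 163 higher with the trend; leaving out 1 array gave 9 to 111 lower and 6 to 128 higher.

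The other replication genes gave 2 lower with 1 probe set per gene or with their mean, 0 with array weights, 3 at 0.10, and 0 to 1 with an array left out; 1 was higher with the trend and at 0.10. Mitosis genes gave 1 lower with the filter at 6, 8 with 1 probe set per gene, 2 with array weights, 11 at 0.10, and 1 to 7 with an array left out. The 12 of 44 member probe sets lower at an unadjusted p under 0.05 became 5 of 22 with the filter at 6. That is 22.7 percent, against 12.02 percent of all tested. Without _s_at and _x_at the count was 7 of 32 (21.9 percent, against 8.62 percent). It was 7 to 11 with a day 0 array left out. The 18 of 44 with both day 4 arrays below became 7 of 22 with the filter at 6 (31.8 percent, against 24.1 percent). Without those suffixes it was 11 of 32 (34.4 percent, against 19.5 percent). With the mean per gene it was 11 of 28 genes (39.3 percent, against 21.5 percent). These 2 counts were added after the data were seen.

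The median of all members kept its sign, from -0.17 to -0.074. With the filter at 6 the median of polymerases, clamp and ligation was -0.028, of nucleotide supply -0.56 and of chromatin assembly and histone supply 0.24. Nucleotide supply was at -0.15 with no filter and -0.46 without _s_at and _x_at. With an array left out, the medians ran from -0.20 to 0.021 for helicase loading, -0.28 to -0.0018 for polymerases and -0.26 to 0.0088 for chromatin assembly.

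A replicate block was tried because both groups number their replicates. The deviations of same-numbered arrays correlated at 0.20 and 0.084 over only 2 pairs. The deviations of the 2 day 4 arrays are exact opposites, so this check cannot tell whether same-numbered arrays were paired. The labels give only the number. With the block 2 member probe sets were lower, both of Rrm2 (adjusted p 0.0249 and 0.0387), with 184 lower and 217 higher in the whole table and 8 mitosis probe sets lower. It turned the sign of Mcm4 1416214_at (-0.0051), E2f1 (0.024), Mcm3 1420028_s_at (-0.013) and 1426652_at (-0.034), Mcm7 1439269_x_at (0.024), Gins1 (-0.11) and Cdh5 1422047_at (0.11).

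Quantile normalization gave -0.0025 for Cdc6, -0.015 for Rfc3 1423700_at, -0.017 for Gins1 and -0.015 for Ptprc. Median centring gave -0.0082 for Cdc6, -0.0056 for Mcm3 1420028_s_at, -0.016 for Rfc3, -0.00043 for Fen1 1436454_x_at, -0.017 for Gins1 and -0.020 for Ptprc. Array weights gave -0.0021 for Mcm3 1420028_s_at, -0.0075 for Rfc3, 0.024 for Mcm7 1439269_x_at and -0.0024 for Gins1. With an array left out, the differences that changed sign ran from -0.058 to 0.13 for Mcm4 1416214_at, -0.46 to 0.50 for Cdc6 1417019_a_at, -0.28 to 0.11 for Orc6 1417037_at, -0.13 to 0.024 for E2f1 1417878_at, -0.042 to 0.080 for Mcm3 1420028_s_at, -0.066 to 0.048 for Rfc3 1423700_at, -0.26 to 0.0088 for Chaf1b 1423877_at, -0.034 to 0.14 for Mcm3 1426652_at, -0.076 to 0.12 for Fen1 1436454_x_at, -0.46 to 0.18 for Mcm4 1436708_x_at, -0.20 to 0.19 for Mcm7 1439269_x_at, -0.28 to 0.19 for Pold1 1448187_at, -0.19 to 0.026 for Prim1 1449061_a_at, -0.16 to 0.024 for Mcm3 1449705_x_at, -0.11 to 0.11 for Gins1 1452598_at, -0.10 to 0.58 for Slbp 1460168_at, -0.13 to 0.11 for Cdh5 1422047_at, -0.051 to 0.33 for Pecam1 1421287_a_at, -1.23 to 0.27 for Epcam 1416579_a_at, and -0.22 to 0.17 for Ptprc 1422124_a_at. A gene with several probe sets has no value of its own under the mean per gene. Without 1 day 4 array, the lone one is assumed to vary like day 0.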
